A study of Drosophila melanogaster and Drosophila miranda with 8 samples.

Results

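The neoX of *Drosophila miranda* is chromosome 3 of this species, the Muller-C element, and the most recently formed of its X-chromosomes. Its CLAMP peaks were taken as every row with the sequence name Muller-C in the peak lists of the 2 *D. miranda* ChIP-seq replicates. There were 565 such peaks among 3577 in replicate 1 and 1937 among 12523 in replicate 2. Where the lists met by 1 bp or more they formed 207 regions on the neoX, out of 1300 on all *D. miranda* chromosomes. Chromatin came from pools of homogenized wild type female larvae at the third instar, from flies kept at 18 °C, and was recovered with an antibody against CLAMP. Each replicate had its own input, chromatin that was not immunoprecipitated, which entered only through the authors' peak calls. For comparison of the same Muller element, the 2 lists from wild type *D. melanogaster* females of the same stage, kept at 21 °C, were used. Nothing in the labels says that the replicates were separate cultures of flies, so the spread between them may be technical. Peaks of 1 library are not independent replicates, and all intervals and tests below cover counting error only.

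CLAMP is a zinc finger protein that binds GA-rich DNA throughout the genome, and in *D. melanogaster* it links the MSL dosage compensation complex to the male X-chromosome. Females carry CLAMP on chromatin but do not assemble the complex. The neoX arose when Muller-C, which is still an autosome arm (2R) in *D. melanogaster*, became linked to sex in the *D. miranda* lineage, whereas XL and XR are older. Female *D. miranda* carry a pair of neoX chromosomes and no neo-Y, so that these peaks do not mix neoX and neo-Y DNA. The comparisons ask whether a young X is occupied by CLAMP more densely than the autosomes. The bases under the peaks and the genes beside them are not analysed here, since no genome of the assembly used by the authors was at hand.

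Few neoX peaks were found in both replicates. By an overlap of at least 1 bp, 220 of 565 replicate 1 peaks were shared (38.9%, exact Clopper-Pearson 95% interval 34.9 to 43.1), where 37.5% of all *D. miranda* replicate 1 peaks were. Of the 1937 replicate 2 peaks, 221 were shared (11.4%, 10.03 to 12.9), against 10.9% of all. With centers within 200 bp, the shares were 8.50% (6.33 to 11.1) in replicate 1 and 2.48% (1.83 to 3.27) in replicate 2, against 7.49% and 2.14% of all peaks. The neoX shares were thus near those of the whole genome. In 186 of the 207 regions, 1 peak of each replicate met, and 21 regions held more. The stretch covered in both replicates had a median of 1038 bp and ran from 11 to 7932 bp. It was under 500 bp in 36 regions and 1000 bp or more in 120.

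The 207 shared regions lay at 9.92 per Mb of the neoX (95% Poisson interval 8.62 to 11.4), taking the end of the last peak as the length of 20.9 Mb. Chromosomes 2 and 4, the long autosomes (Muller-E and Muller-B), together held 8.77 per Mb. The ratio of 1.13 was not distinguishable from 1 (95% interval 0.959 to 1.33, exact conditional binomial test, two-sided, p = 0.13). In replicate 1, the neoX held 27.1 peaks per Mb against 25.1, a ratio of 1.08 (0.978 to 1.19, exact p = 0.127). In replicate 2, it held 92.8 per Mb against 89.1, a ratio of 1.04 (0.989 to 1.10, exact p = 0.115). Regions in which the centers of both peaks were within 200 bp numbered 48 on the neoX, at 2.30 per Mb against 1.63, a ratio of 1.41 (0.977 to 2.00, exact p = 0.0587). After Benjamini-Hochberg adjustment over these 4 tests each adjusted p was 0.13. The neoX had the higher density in all 4 measures, but neither list nor the shared regions put it apart from chromosomes 2 and 4 beyond counting error. The call depended on which peaks were counted. The 50% of replicate 1 peaks with the highest value, ties included (1984 of 3577), gave a ratio of 1.24 (1.09 to 1.41). The widest 50% of replicate 2 peaks gave 1.12 (1.04 to 1.20). In the other list, the interval of each cut included 1. The cut by value gave 1.04 (0.964 to 1.12) in replicate 2. The cut by width gave 1.09 (0.945 to 1.25) in replicate 1, an interval that also held the 1.12 of replicate 2.

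**Figure D1:**
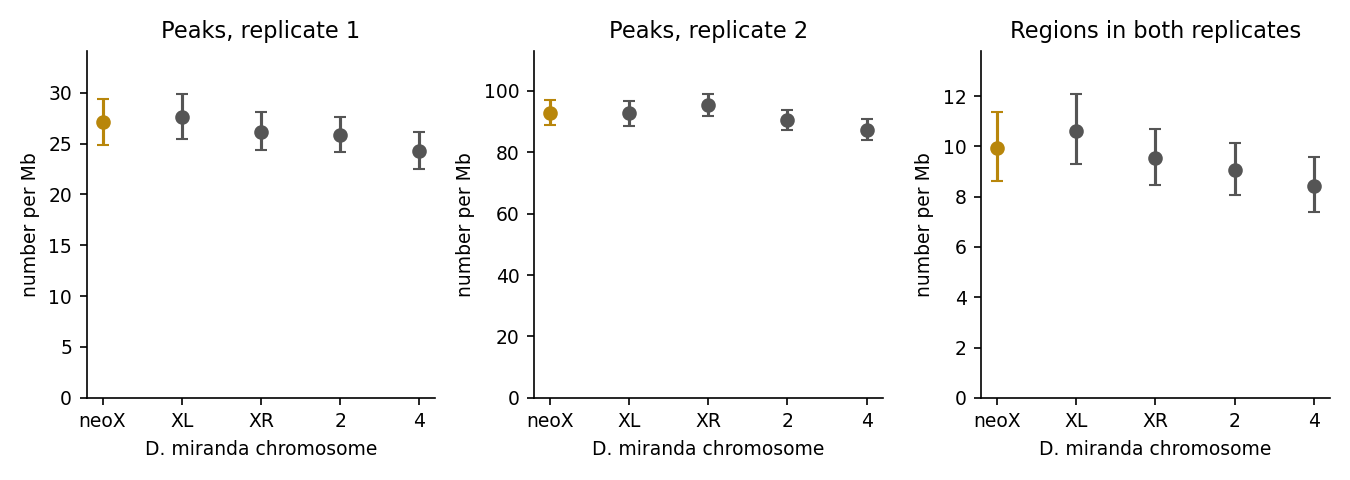
Number of CLAMP peaks per Mb on each long *D. miranda* chromosome (vertical axes from 0) in replicate 1, in replicate 2, and for regions found in both; points are densities and bars 95% Poisson intervals. The neoX, in gold, lies at 27.1, 92.8 and 9.92 per Mb, and its intervals overlap those of XL, XR and chromosomes 2 and 4 in every panel.

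The ancient X-chromosomes gave no clearer contrast with the neoX. XL held 27.6 and 92.6 peaks per Mb in replicates 1 and 2, and XR held 26.2 and 95.4, all with 95% Poisson intervals that overlapped those of the neoX, as did the 10.6 and 9.53 shared regions per Mb. The difference of the neoX from XL and XR was not tested.

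The first Mb of the neoX sequence stood apart from the rest of the chromosome. In replicate 1, it held 56 peaks, where the other 19 full bins of 1 Mb held between 17 and 34. In replicate 2, it held 111 peaks, against 76 to 108 in the other full bins. It thus had the most peaks in both lists. The fewest peaks in a full bin were 17 in replicate 1, from 17 to 18 Mb, and 76 in replicate 2, from 18 to 19 Mb. In replicate 1, the 56 peaks gave 2.07 times the median bin, whereas the first Mb of XL, XR, 2 and 4 held 27, 30, 27 and 23 peaks, or 1.00 to 1.11 times their medians. The most populated bins of these 4 chromosomes in replicate 1 held 36, 33, 41 and 38. In replicate 2 the first Mb was not exceptional beyond the neoX, since single bins of XR and chromosome 2 held 121 and 112 peaks. This stretch was singled out after the counts were seen, so its excess has no test.

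Peaks of the first Mb were also found in both replicates more often. Of its 56 replicate 1 peaks, 36 overlapped a replicate 2 peak (64.3%, exact Clopper-Pearson 95% interval 50.4 to 76.6), against 184 of the other 509 (36.1%, 32.0 to 40.5). Of its 111 replicate 2 peaks, 33 overlapped a replicate 1 peak (29.7%, 21.4 to 39.1), against 188 of 1826 (10.3%, 8.94 to 11.8). The stretch therefore held 31 of the 207 shared regions, and the other bins held 5 to 13 each. Peaks covered more of it as well, at 9.30% of its bases in replicate 1 and 20.9% in replicate 2, where the other bins had 2.32 to 4.96% and 11.8 to 18.4%. Denser coverage by itself makes overlaps more frequent, and its part in the higher share was not tested. Peaks in this stretch were not higher in value. Their median was 3.50 in replicate 1, below the range of 3.77 to 4.59 in the other bins, and 1.80 in replicate 2, at the lower end of 1.80 to 2.02. Within the stretch, the replicate 1 peaks lay mostly in its first 600 kb, with 8, 11, 8, 2, 8 and 8 in steps of 100 kb and then 3, 2, 3 and 3. The replicate 2 peaks were spread evenly, with 9 to 14 in each step.

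The ratios to the autosomes came closer to 1 without this stretch. A drop follows from how it was picked, as the neoX bin with the most peaks in both lists, and is no separate evidence. Leaving out the first Mb of every chromosome, an alternative chosen after seeing the data, moved the density ratio to chromosomes 2 and 4 from 1.08 to 1.02 in replicate 1 (95% interval 0.919 to 1.13), from 1.04 to 1.03 in replicate 2 (0.975 to 1.08), from 1.13 to 1.01 for shared regions (0.848 to 1.20) and from 1.41 to 1.16 for regions with matched centers (0.782 to 1.70).

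**Figure D2:**
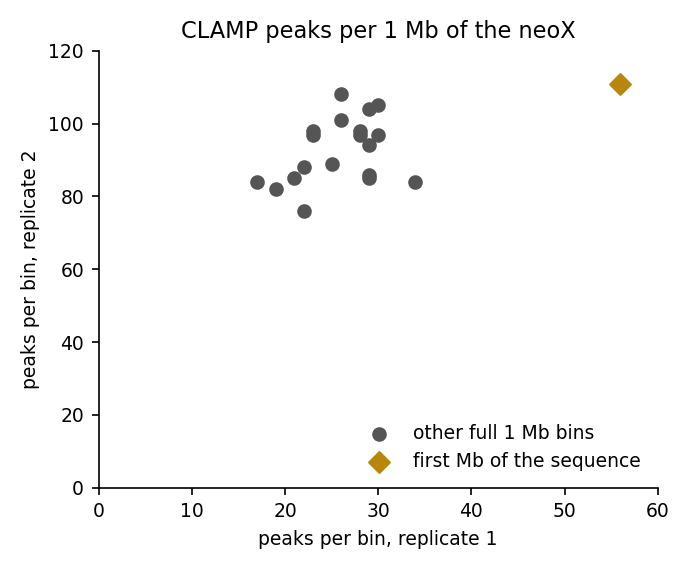
Each point is 1 of the 20 full bins of 1 Mb along the neoX, with its number of peaks in replicate 1 (horizontal axis) and in replicate 2 (vertical axis). The first Mb, the gold diamond at 56 and 111 peaks, lies apart from the other bins, which hold 17 to 34 peaks in replicate 1 and 76 to 108 in replicate 2.

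Beyond the first Mb, peaks were spread evenly along the neoX at the scale of 1 Mb bins. The variance of the bin counts over their mean was 0.744 in replicate 1 and 0.864 in replicate 2, where counts scattered without any structure would give about 1. Over the 20 full bins, the counts of the replicates had a Spearman rho of 0.46 (Pearson 0.54), and 0.37 (0.37) without the first bin. These bins share their sequence and the mappability of their reads, and this is a description only. The median distance between neighboring centers was 23.1 kb in replicate 1 (exact 95% interval 20.1 to 26.4) and 7.75 kb in replicate 2 (7.31 to 8.21). Chromosomes 2 and 4 had 27.7 kb (24.9 to 30.5) and 29.4 kb (26.5 to 31.9) in replicate 1, and 7.78 and 7.95 kb in replicate 2. Less than 5 kb from a neighbor lay 174 of the 565 peaks of replicate 1 (30.8%, 27.01 to 34.8), compared with 25.1% on chromosome 2 (22.2 to 28.1) and 23.6% on chromosome 4 (20.5 to 26.9). In replicate 2 these shares were 67.5% (65.4 to 69.6), 66.1% and 65.0%. XL and XR had 22.9 kb (20.2 to 26.3) and 26.5 kb (23.8 to 28.6) in replicate 1, with 30.3% and 27.5% of peaks this close to a neighbor, so that the spacing on the neoX was near that on XL. It was not recomputed without the first Mb. In coordinates of Muller-C in the assembly used by the authors, the longest stretch without a peak in replicate 1, of 276 kb from 17867363 to 18143391, held 19 peaks of replicate 2. The longest in replicate 2, of 126 kb from 1371062 to 1496747, held no peak of replicate 1.

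The lists give each peak 1 unnamed value, taken to be the log2 enrichment of ChIP over input. On the neoX it ran from 0.91 to 6.77 in replicate 1, with a median of 4.18 (exact 95% interval 3.96 to 4.28), and from 0.31 to 4.69 in replicate 2, with a median of 1.90 (1.88 to 1.94). The 2 lists have separate scales, and values are compared within a list only. Medians on chromosomes 2 and 4 were both 3.96 in replicate 1, the lower bound of the neoX interval, and 1.91 and 1.90 in replicate 2. The values fall on few levels. The 565 peaks of replicate 1 had 100 distinct values, and the 6 most common covered 305 of them. Relative to the most common value, 4.96, these 6 levels stood at 8, 5, 6, 4, 3 and 10 eighths on the linear scale. In replicate 2, 359 distinct values occurred, and the 6 most common covered 384 of 1937 peaks. Relative to 2.02, these stood at 6, 8, 4, 7 and 5 sixths, and 1 of them, 1.80, at 5.143. The study's methods give the aligned reads of each library, with more for the replicate 2 ChIP than for the replicate 1 ChIP. The lists carry no tag counts per peak, so the number of tags behind a level is unknown. The order of peaks within a level is not defined.

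High values went with narrow peaks. No peak was narrower than 1000 bp, and 189 neoX peaks of replicate 1 (33.5%) and 260 of replicate 2 (13.4%) had exactly this width. Of the 83 peaks at the level of 4.96, 82 had this width. The median width was 1283 bp in replicate 1 (exact 95% interval 1206 to 1361) and 1410 bp in replicate 2 (1370 to 1449), with the widest peaks at 8101 and 7096 bp. Chromosomes 2 and 4 had median widths of 1297 and 1245 bp in replicate 1 and of 1369 bp (1343 to 1390) and 1355.5 bp (1330 to 1383) in replicate 2. XL and XR had 1336 and 1280 bp in replicate 1. In replicate 2 they had 1444 bp (1402 to 1482) and 1416 bp (1388 to 1438), so that the neoX was near them. Over the peaks of the neoX, value and width had a Spearman rho of -0.51 in replicate 1 (n = 565) and -0.29 in replicate 2 (n = 1937). This is a description, since the lists carry no tag counts and the part of the peak calling in it was not tested. On XL, XR, 2 and 4 the rho was between -0.52 and -0.44 in replicate 1 and between -0.32 and -0.29 in replicate 2.

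To see how the overlap depended on the peak positions, the centers of one list were placed against the peaks of the other and compared with their own surroundings. In replicate 1, 155 of 565 neoX centers (27.4%, 23.8 to 31.3) were inside a replicate 2 peak. At distances of 20 to 100 kb from the same centers, on both sides, 15.3% of positions were. Replicate 2 centers were inside a replicate 1 peak in 143 of 1937 cases (7.38%, 6.26 to 8.64), against 4.12% in their surroundings. The centers thus exceeded their surroundings 1.79 times in each direction. The corresponding factors for replicate 1 centers were 2.00 (XL), 1.76 (XR), 1.75 (chromosome 2) and 1.70 (chromosome 4).

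**Figure D3:**
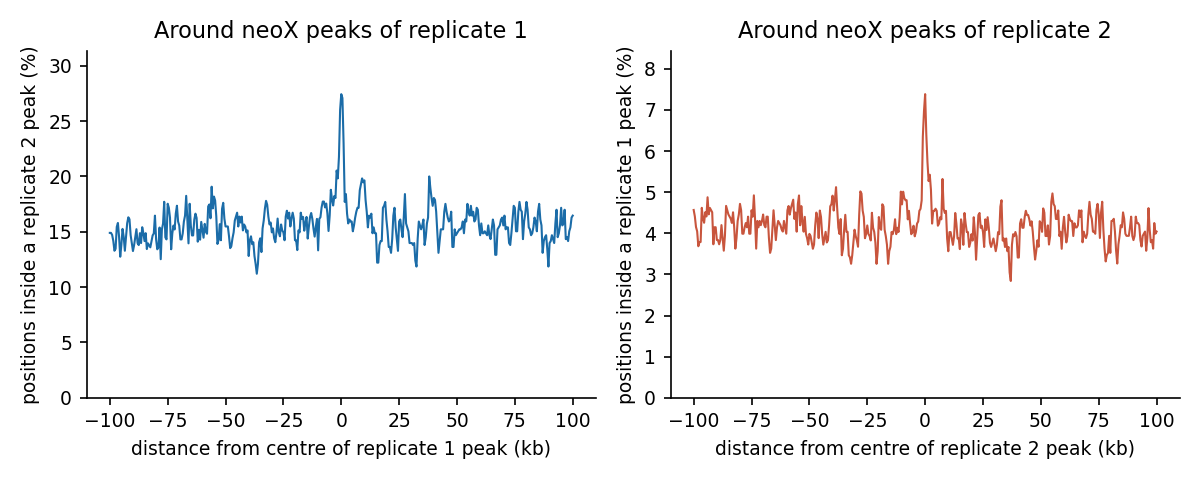
Share of positions inside a peak of the other replicate (vertical axes, percent, from 0) at each distance in kb from the centers of neoX peaks of replicate 1 (left) and of replicate 2 (right), in steps of 0.5 kb. The share rises at the center to 27.4% and 7.38% above surroundings of 15.3% and 4.12%, and it falls to values found in the surroundings within 5 kb of the center.

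The excess over the surroundings was largest for the wide peaks. Of the 87 replicate 1 peaks of 2000 bp or more, 48 had their center inside a replicate 2 peak (55.2%, 44.1 to 65.9), against 16.3% in their surroundings. Of the 189 peaks of exactly 1000 bp, 29 did (15.3%, 10.5 to 21.3), against 15.2%. In replicate 2, the same shares were 17.8% (13.6 to 22.7) against 4.61% for the 292 wide peaks, and 3.85% (1.86 to 6.96) against 4.01% for the 260 narrowest. For the narrowest peaks, which had the highest median value of the width classes in both replicates (4.96 and 2.24), the share at the center was thus not distinguishable from that of the surroundings at this number of peaks. On chromosome 4, 19.7% of the narrowest replicate 1 peaks had their center inside a replicate 2 peak (14.7 to 25.6), against 13.6% in the surroundings. On XL, 22.1% did (16.3 to 28.9), against 15.1%. On both chromosomes, the narrowest replicate 1 peaks thus exceeded their surroundings. In replicate 2 they did not, with 3.26% against 3.41% on chromosome 4 and 3.65% against 4.15% on XL. Whether the neoX differs from these chromosomes was not tested, and their intervals overlap that of the neoX.

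By overlap, the shared part of the replicate 1 list rose from 43 of 189 peaks of 1000 bp (22.8%, 17.0 to 29.4) to 11 of 12 peaks of 3000 bp or more (91.7%, 61.5 to 99.8). In replicate 2 it rose from 16 of 260 (6.15%, 3.56 to 9.80) to 31 of 72 (43.1%, 31.4 to 55.3). A wide peak has more room to overlap any other peak, and the part of this in the rise was not tested. Chromosomes 2 and 4 had similar shares in each class of width.

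**Figure D4:**
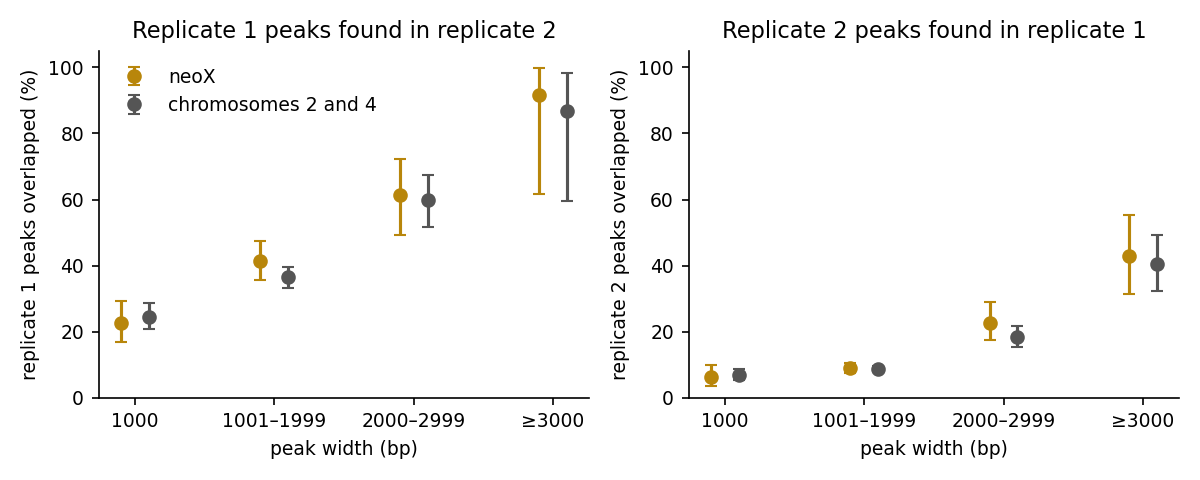
Share of peaks overlapped by a peak of the other replicate (vertical axes, percent) by width of the peak in bp, for replicate 1 (left) and replicate 2 (right), on the neoX (gold) and on chromosomes 2 and 4 together (gray); bars are exact 95% intervals. On the neoX the share rises with width from 22.8% to 91.7% in replicate 1 and from 6.15% to 43.1% in replicate 2, and the intervals of both groups overlap in every class.

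The share was lowest among the peaks of highest value. The highest 20% of the neoX peaks in replicate 1, with ties, those at 4.96 and above, had 31 of 135 shared (23.0%, 16.2 to 31.0), and the lowest 20%, at 3.22 and below, had 64 of 113 (56.6%, 47.0 to 65.9). In replicate 2, 30 of 388 (7.73%, 5.28 to 10.9) were shared in the highest 20% and 66 of 392 (16.8%, 13.3 to 20.9) in the lowest. The median widths of these groups were 1000 and 1871 bp in replicate 1, and 1118 and 1656.5 bp in replicate 2. Value and width thus moved together with sharing, and their separate parts were not tested.

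The 3 highest peaks named for each list, with ties taken in order along the chromosome, were each found in 1 replicate. In replicate 1, they were a peak of 6.77 from 4091634 to 4093633, one of 5.96 from 425463 to 426476, and one of 5.96 from 11380221 to 11382220, all on Muller-C of the assembly used by the authors. The value of 5.96 was held by 3 peaks, of which these are the first along the sequence. None of the named peaks overlapped a replicate 2 peak, and the nearest lay 15551, 7628 and 523 bp away. In replicate 2, they were a peak of 4.69 from 10720644 to 10722643, one of 4.44 from 6143236 to 6145235, and one of 4.24 from 17692382 to 17693630, with the nearest replicate 1 peak 11397, 3870 and 6323 bp away. The value of 4.24 was held by 2 peaks. Lack of overlap was the common case on the neoX, with 345 of 565 peaks in replicate 1 and 1716 of 1937 in replicate 2. Over all *D. miranda* peaks, 37.5% of replicate 1 and 10.9% of replicate 2 were overlapped. The named peaks are therefore no sign that the highest peaks differ from the rest.

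The 8 best-ranked of the shared regions by value in both lists held 1 peak of each replicate. The first, from 15754273 to 15755546, held a replicate 1 peak of 1042 bp at 5.28 and a replicate 2 peak of 1000 bp at 2.61, which overlapped by 768 bp. The next, from 793602 to 794798, had values of 4.96 and 2.90 and peaks of 1000 bp in both replicates, and lies in the first Mb. The following, from 4788143 to 4790896, had 4.84 and 3.11 with peaks of 2089 and 2754 bp. The last of the high pairs, from 10503595 to 10505651, had 4.55 and 2.85. By rank, these 4 were within the highest 31.8% of the neoX list in replicate 1 and the highest 11.5% in replicate 2. The other 4 of the best 8 began at 1625646, 9557586, 14248362 and 5612254. They had 4.96 in replicate 1 and 2.22 to 2.24 in replicate 2, and one of them rested on an overlap of only 13 bp. In these 4, and in the regions from 793602 and from 10503595, the replicate 1 peak was exactly 1000 bp wide. Centers of neoX peaks of this width were inside a replicate 2 peak in 15.3% of cases, against 15.2% in their surroundings. Of all 207 regions, 33 were in the highest 50% of both neoX lists and 2 in the highest 20% of both. The ranks were over all neoX peaks, and shared peaks had lower median values than unshared ones. These were 3.91 against 4.28 in replicate 1 and 1.78 against 1.92 in replicate 2. The same counts were not made on other chromosomes, so they do not set the neoX apart. Over the 207 regions, the values of the replicates had a Spearman rho of 0.14 and the widths 0.43, as a description. On XL, XR, 2 and 4 the same rho was between 0.25 and 0.30 for values and between 0.14 and 0.28 for widths.

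**Figure D5:**
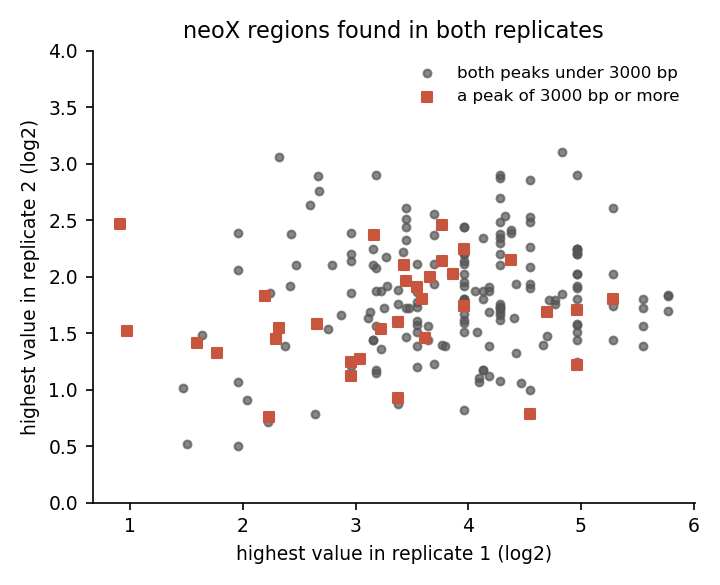
The 207 neoX regions found in both replicates, each at its highest value in replicate 1 (horizontal axis, log2) and in replicate 2 (vertical axis, log2); red squares mark the 33 regions with a peak of 3000 bp or more in either list. The values show little common order (Spearman rho 0.14).

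The widest regions of agreement had mostly low values. The widest was a single replicate 1 peak of 8101 bp at 1.59, met by 2 replicate 2 peaks at 1.41 and 1.35, together from 5383904 to 5392275, with 7932 bp covered in both. The next, from 5966105 to 5977622, held replicate 1 peaks at 2.96 and 2.25 and replicate 2 peaks at 1.12, 0.31 and 0.83, with 7760 bp covered in both. The third, from 174538 to 182385, held replicate 1 peaks at 2.22, 2.75 and 4.96 and a single replicate 2 peak of 7096 bp at 1.71, with 6720 bp covered in both. All of them lie in stretches that held several peaks of 3000 bp or more. Of the 12 in replicate 1, 5 lay in the first Mb, 5 between 5 and 7 Mb, and 2 elsewhere. Of the 72 in replicate 2, 12 lay in the first Mb, 14 between 5 and 7 Mb, and 46 elsewhere. These stretches were chosen after the positions were seen. Of all neoX peaks, the first Mb held 9.91% in replicate 1 and 5.73% in replicate 2. The bins from 5 to 6 and from 6 to 7 Mb held 26 and 25 of 565 peaks in replicate 1. In replicate 2 they held 108 and 89 of 1937. The pairs with the closest centers were from 681184 to 682430, from 12657663 to 12659455 and from 4712634 to 4713790, at 4.5, 6.5 and 7.5 bp. Their values were 4.28 and 2.20, 5.55 and 1.73, and 2.64 and 0.79. By rank, the first was within the highest 44.2% and 29.1% of the neoX lists of replicates 1 and 2. The second was within the highest 2.83% and 64.7%, and the last within 92.6% and 99.2%. None of these pairs was thus in the highest 20% of both lists, and only the last was low in both.

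The same Muller element was compared between species, since Muller-C is the neoX in *D. miranda* and the autosome arm 2R in *D. melanogaster*, whereas Muller-B and Muller-E are autosomes in both. In *D. melanogaster*, 2R held 1558 peaks in replicate 1, at 73.7 per Mb against 78.4 on 2L and 3R, a ratio of 0.940 (95% interval 0.886 to 0.997), and 1487 in replicate 2, at 70.3 against 70.0, a ratio of 1.00 (0.945 to 1.07). The *D. miranda* ratios were 1.08 and 1.04. Replicates of different species are not pairs, so each *D. miranda* ratio was divided by each of *D. melanogaster*. With *D. melanogaster* replicate 1 this gave 1.15 (95% Poisson interval 1.02 to 1.28) and 1.11 (1.03 to 1.20) for *D. miranda* replicates 1 and 2. With *D. melanogaster* replicate 2 it gave 1.07 (0.958 to 1.20) and 1.04 (0.959 to 1.12). For regions shared by both replicates it gave 1.18 (0.967 to 1.44). All 5 values were above 1, but the 2 intervals that left out 1 both rest on *D. melanogaster* replicate 1, and species, temperature and genome assembly vary together. Without the first Mb of each chromosome, the 5 values were 1.01 to 1.07, each with an interval that included 1. That omission was chosen after seeing the data and takes out the neoX bin with the most peaks. It also changed the 2R side, where the ratio of *D. melanogaster* replicate 1 moved from 0.940 to 0.959 (0.903 to 1.02). The parts of the 2 species in the change were not tested.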

How the data were processed

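CLAMP ChIP-seq was performed on 2 replicates of female larvae per species, each with an input. According to the study's methods, the authors aligned reads uniquely to dm3 or to a *D. miranda* assembly (Bowtie is named in the submitters' notes), dropped positions with anomalous tag numbers, scaled by library size and ran SPP with default settings on each replicate. The sources used here give no version. The submitters' notes list dm3 for the *D. miranda* samples too, whereas the sequence names in these lists are Muller elements, so coordinates and lengths are given as the lists have them, without a named build. The deposited lists give a start, an end and a value per peak, read as a log2 ratio. Here, starts were written 1-based, and peaks were linked by an overlap of at least 1 bp or by centers within 200 bp, and compared per Mb by exact conditional binomial tests, adjusted over 4 tests, with Clopper-Pearson, Poisson and order-statistic intervals at 95% (Python 3.11.15, numpy 2.4.6, pandas 2.3.3, scipy 1.17.1, matplotlib 3.10.9). Muller-AD was taken as XR. Named regions were the 8 best by mean scaled rank of value, the 3 widest in both lists, the 3 with the closest centers, the 3 highest peaks and the longest stretch without a peak per list, and the extreme bins. The members and comparisons were chosen with earlier results of these data known. Alternatives concerned overlap, width, value, length and reference chromosomes. Calculations were tested on simulated data. Motifs and genes are not analysed here.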

Additional observations from a re-analysis of the deposited data

Results flagged for a closer look

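The density of Muller-C relative to Muller-B and Muller-E differed between the species in the Poisson interval of the ratio of ratios for 2 of the 4 combinations of replicates. *D. miranda* replicates 1 and 2 over *D. melanogaster* replicate 1 gave 1.15 (1.02 to 1.28) and 1.11 (1.03 to 1.20). Both share the same *D. melanogaster* list, and neither interval left out 1 after the first Mb of each chromosome was removed. That removal was chosen after seeing the data and takes out the neoX bin with the most peaks. It also moved the 2R ratio of *D. melanogaster* replicate 1 from 0.940 to 0.959 (0.903 to 1.02).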

How the results depend on the processing

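Over 44 alternative settings of the 4 density ratios to chromosomes 2 and 4, 43 stayed above 1 (centers within 100 bp gave 0.972). In the exact conditional binomial test 8 passed 0.05 unadjusted, where none of the main ratios did. The settings reuse the same 2 peak lists, and some repeat a main ratio, so this tally is no measure of stability. In replicate 1, the 50% of peaks with the highest value, ties included, gave 1.24 (exact p = 0.000926). Without the first Mb it gave 1.21 (exact p = 0.00486). The tied values at the cut left 1984 of 3577 peaks, and 350 of 565 on the neoX. The same cut in replicate 2 gave 1.04 (exact p = 0.312). In replicate 2, chromosome 4 alone as reference gave 1.06 (exact p = 0.0468). The widest 50% of replicate 2 peaks gave 1.12 (exact p = 0.00362), or 1.09 (exact p = 0.0197) without the first Mb. The widest 50% of replicate 1 peaks gave 1.09 (exact p = 0.239). For shared regions, a reciprocal overlap of 50% gave 1.28 (exact p = 0.0249) and the widest 50% of each list gave 1.46 (p = 0.00133). Without the first Mb these became 1.12 (exact p = 0.313) and 1.23 (p = 0.102). Centers within 500 bp gave 1.28 (exact p = 0.037), and 1.13 (p = 0.343) without the first Mb. Settings without the first Mb were chosen after seeing the data and take out the neoX bin with the most peaks. Using one replicate in place of the shared regions gave ratios of 1.04 to 1.08. The shares of neoX peaks found in both replicates, 38.9% and 11.4%, moved to 21.4% and 6.25% with a reciprocal overlap of 50%. With centers within 200 bp they moved to 8.50% and 2.48%. With the 50% of highest value, ties included, they were 13.7% and 4.796%. They were 8.14% and 8.17% with the replicate 2 list cut to equal length by value. The cause was not tested. The lists carry no tag counts, so the number of tags behind a peak is unknown. Sequence under the peaks was not run. No paired analysis was possible because the replicate numbers tie no library of one species to one of the other and inputs have no peak list.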
